A study of Pyrus pyrifolia with 6 samples.

Results

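Described here are places in the pear genome where regions whose CG methylation differed in bagged fruit overlapped regions whose CHG methylation differed. The data are from whole-genome bisulfite sequencing of fruit skin of Pyrus pyrifolia 'Cuiguan', a cultivar whose skin becomes partly russet, meaning brown and corky. The bagged group (3 samples) was skin of fruit under paper bags, single-layer white ones from 20 days and double-layer yellow-white ones from 40 days after full bloom. The unbagged group (3 samples) was skin of uncovered fruit. All skin was taken at 115 days after full bloom, from trees of 7 years. The authors' deposited table lists 53954 regions that they called as differentially methylated, each in CG, CHG or CHH context (H is A, C or T). A region was chosen if it lay on a chromosome, was of CG context and had 1 bp or more in common with a CHG region, or was such a CHG region. This gave 279 CG regions (14.2% of the 1958 CG regions on chromosomes) and 285 CHG regions (15.9% of 1787), 564 regions in all. They formed 288 overlapping pairs and, once joined, 276 loci, of which 264 were made of 1 CG and 1 CHG region and 12 of 3 regions.

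In plants, as worked out in Arabidopsis, CG methylation is copied after replication by the methyltransferase MET1. CHG methylation is kept up by the chromomethylase CMT3 together with methylation of histone H3 at lysine 9, and CHH methylation is renewed by DRM2, which small RNAs guide, and by CMT2. Active genes often carry CG methylation alone, whereas transposons and other silenced repeats carry CG and CHG methylation together, and DNA glycosylases of the ROS1 and DEMETER family can remove the mark in every context. The genes, repeats and bases at the loci were not analysed here.

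Each value below is the authors' mean level of a region in a group, printed as a percentage, and each difference is bagged minus unbagged in percentage points. Because the means pool the replicates, there is no spread between samples, no test over samples could be made and the depth is unknown. Comparisons with other regions are therefore given side by side as descriptions. The ranges beside shares are 95% binomial intervals by the exact Clopper-Pearson method and hold counting error alone. The CG and CHG cytosines of a pair lie on overlapping stretches of DNA and were read in the same libraries, so they are not independent measurements. In bulk skin, a change of level in the cells and a change in the mix of cells cannot be told apart.

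The loci were split almost evenly by direction. In bagged skin 145 loci had higher methylation (52.5%, 46.5 to 58.6) and covered 32.8 kb, while 131 had lower methylation and covered 28.6 kb. The CG regions at the loci, 147 higher (52.7%) and 132 lower, stand beside a background of 38.4% higher and 61.6% lower among all CG regions on chromosomes. The CHG regions, 151 higher (53.0%) and 134 lower, stand beside 50.3% higher and 49.7% lower among all CHG regions. The loci held 19.6% of all higher CG regions and 10.9% of all lower ones, but similar portions of the higher (16.8%) and lower (15.1%) CHG regions. Every pair had 1 direction in both contexts, 153 pairs higher and 135 lower. The 23 further pairs that shared no base but lay up to 100 bp apart also had the same direction in both contexts.

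**Figure D1:**
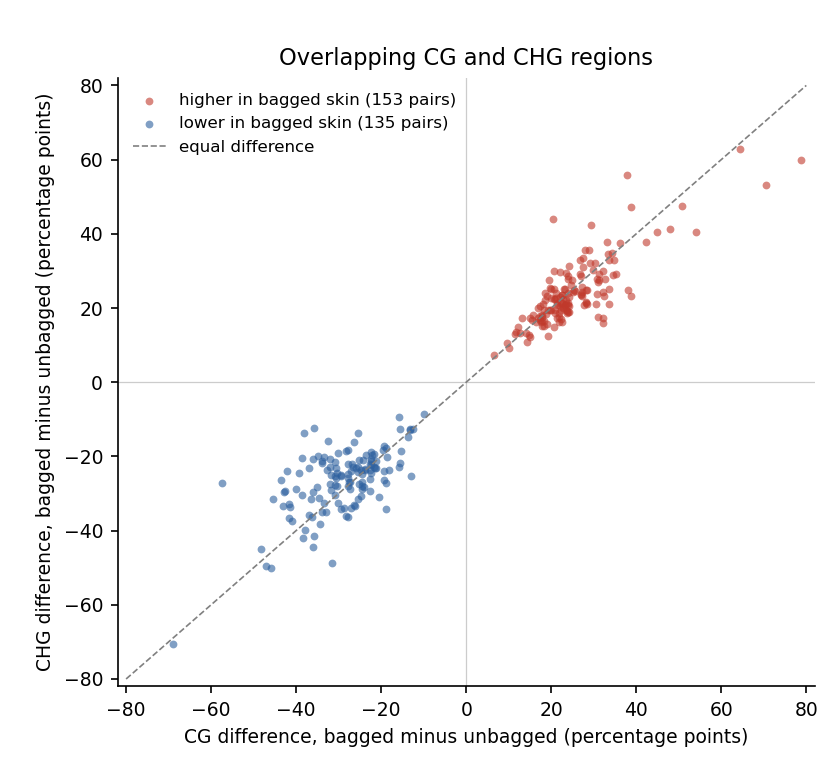
Difference in CG context (x axis) and in CHG context (y axis), bagged minus unbagged in percentage points, for each of the 288 overlapping pairs, with a dashed line of equal difference. The 153 higher pairs lie in the upper right and the 135 lower pairs in the lower left, and the lower pairs spread more widely around the line.

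The CG and CHG differences of a pair were close in size. Among higher pairs the median difference was 23.5 points in CG context (quartiles 19.7 and 29.1) and 22.5 points in CHG context (18.7 and 27.8). Among lower pairs it was -27.9 points in CG context (-34.5 and -22.7) and -25.04 points in CHG context (-30.8 and -21.3). Close medians were not particular to the pairs. All higher CG and CHG regions on chromosomes had 22.2 and 22.7 points, and all lower ones -23.7 and -24.5 points. In 109 of the 153 higher pairs (71.2%) the sizes lay within 5 points of each other, and in 75 of the 135 lower pairs (55.6%). The same share for CG and CHG regions that do not overlap was not computed. Across the higher pairs, the CG and CHG differences were correlated with Pearson's r of 0.82 and Spearman's rho of 0.74, and across the lower pairs with 0.62 and 0.52. Without the pair of the largest mean difference in each direction, r was 0.80 and 0.55. These correlations are across places of the genome that share libraries and reads, and are given as a description.

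The CG difference was the larger of a pair somewhat more often, but the proportional change was more often larger in CHG context. At equal differences in points, the context with the lower unbagged level has the larger proportional change, so these comparisons are not separate results. The larger difference in points was in CG context in 91 of the 153 higher pairs (59.5%, 51.3 to 67.3) and in 84 of the 135 lower pairs (62.2%, 53.5 to 70.4). The CG level exceeded the CHG level in 135 of the 153 higher pairs, in bagged as in unbagged skin. Among the lower pairs it did so in 119 of 135 in bagged and 120 in unbagged skin. Starting from these lower levels, CHG methylation had the larger ratio of bagged to unbagged in 109 of the 153 higher pairs (71.2%, 63.4 to 78.3), with a median ratio of 2.30 against 1.91 in CG context. Among lower pairs the bagged level was a median of 0.44 of the unbagged level in CHG context and 0.52 in CG context, and the proportional loss was greater in CHG context in 104 of 135 pairs (77.0%, 69.02 to 83.8).

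Levels at the loci were intermediate in both groups rather than all or none. In higher pairs the CG level had a median of 54.0% in bagged skin (lowest 11.8%, highest 91.4%) and 27.0% in unbagged skin (3.18% to 65.9%). The CHG level in these pairs had medians of 48.8% in bagged (10.9% to 86.7%) and 20.9% in unbagged skin (1.74% to 58.2%). In lower pairs the CG level had medians of 32.3% in bagged (2.93% to 77.02%) and 68.4% in unbagged skin (14.6% to 95.6%). The corresponding CHG medians were 21.7% in bagged (2.28% to 64.2%) and 48.6% in unbagged skin (11.1% to 85.6%). In each context the ranges of bagged and unbagged skin overlapped widely between pairs, although within a pair the direction was fixed.

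**Figure D2:**
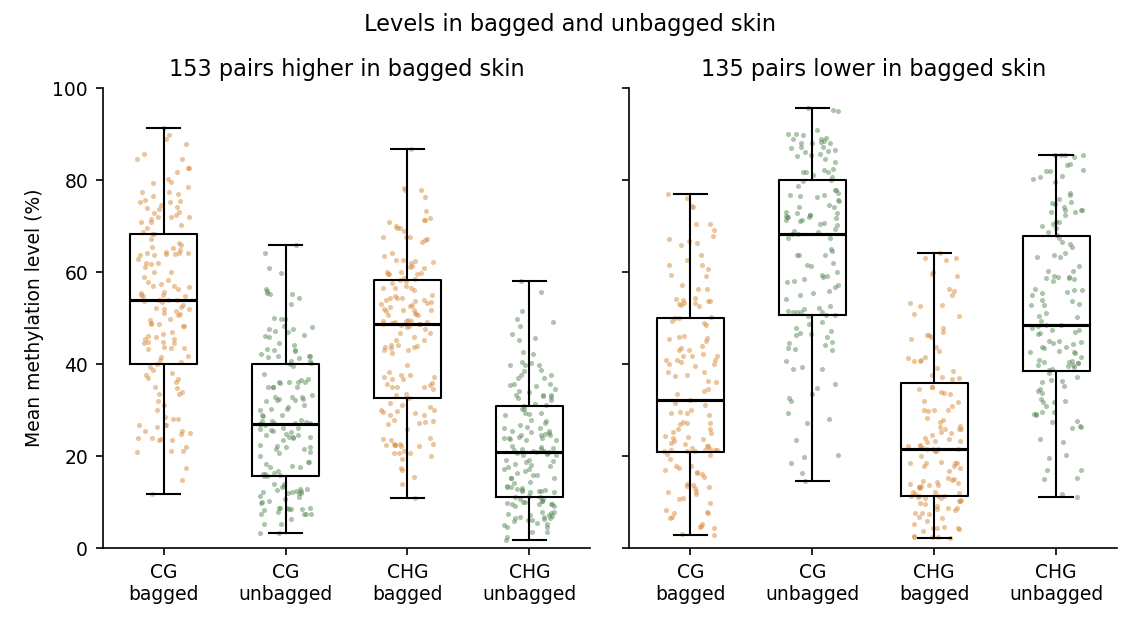
Mean methylation level (y axis, %) of the CG and CHG regions of each pair in bagged and unbagged skin, for pairs higher (left) and lower (right) in bagged skin. Points are regions as they occur in pairs, boxes span the quartiles with the median as a line, and whiskers reach the lowest and highest values. CHG boxes sit below the CG boxes of the same skin.

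With levels grouped as under 20%, from 20 to 50%, and at least 50%, the usual step was to the neighbouring group. In CG context 70 of the 153 higher pairs were at 50% or more in bagged and at 20 to 50% in unbagged skin, and 41 were at 20 to 50% in bagged and under 20% in unbagged skin. In CHG context the corresponding numbers were 56 and 54. Among the 135 lower pairs, 61 were at 20 to 50% in bagged and at least 50% in unbagged skin in CG context, and a further 35 were at 50% or more in both. In CHG context 51 lower pairs were under 20% in bagged and at 20 to 50% in unbagged skin, and 48 were at 20 to 50% in bagged and at least 50% in unbagged skin. Under 20% in both contexts were 48 of the higher pairs in unbagged skin and 31 of the lower pairs in bagged skin.

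A jump between the outer groups in both contexts was found in 3 higher and 2 lower pairs, chosen here with their values in view. The higher ones were on chromosome 11 at CG region 5650253 to 5650431, described next, on chromosome 11 at CG region 12223543 to 12223636, and on chromosome 4 at CG region 2844049 to 2844126. In the last of these the CG level was 91.4% in bagged and 12.8% in unbagged skin (4 cytosines), and the CHG level was 77.9% in bagged and 18.1% in unbagged skin (6 cytosines). The lower ones were on chromosome 7 at CG region 3903374 to 3903435 and on chromosome 17 at CG region 4443029 to 4443116. At the locus on chromosome 17, the difference was the lowest of all pairs in both contexts, with a CG level of 16.4% in bagged and 85.4% in unbagged skin (6 cytosines) and a CHG level of 9.84% in bagged and 80.3% in unbagged skin (8 cytosines). Of these 5 pairs, 4 had fewer than 10 cytosines in at least 1 region.

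The largest gains were then taken among the 173 pairs with at least 10 cytosines in each region, ranked by the mean of the CG and CHG differences. First was the pair on chromosome 11, with the CG region from 5650253 to 5650431 (12 cytosines) inside the CHG region from 5650234 to 5650459 (33 cytosines). Its CG level was 72.8% in bagged and 8.33% in unbagged skin, and its CHG level was 69.5% in bagged and 6.62% in unbagged skin. Second was the gain on chromosome 17 with the CG region from 14613642 to 14613745 inside the CHG region from 14613599 to 14613761, which was unequal between contexts. There CG methylation was at 79.4% in bagged and 41.6% in unbagged skin, whereas CHG methylation was at 70.9% in bagged and 15.2% in unbagged skin. On chromosome 7, from 29482186 to 29482288 in CG context, the difference was 42.3 points, and it was 37.8 points in the CHG region from 29482165 to 29482304.

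At the other 5 of the 8 leading gains the DNA was partly methylated in unbagged skin. This did not set them apart from the second gain, with 41.6% in CG context in unbagged skin. The third gain had 17.8% in CG and 21.0% in CHG context in unbagged skin. On chromosome 15, the CG region from 45014136 to 45014271 had 73.1% in bagged and 36.8% in unbagged skin, and its CHG partner from 45014180 to 45014272 had 59.7% in bagged and 22.2% in unbagged skin. The largest of these 5 by its number of cytosines was on chromosome 2, with 42 CG cytosines from 25823448 to 25823728 (34.7 points) and 32 CHG cytosines from 25823335 to 25823649 (32.9 points). On chromosome 17, the CHG region from 4442181 to 4442520 differed by 42.3 points and the CG region inside it, from 4442281 to 4442512, by 29.3 points. The remaining gains were on chromosome 11 at CG region 12519512 to 12519627 (33.7 points in CG and 32.9 in CHG context) and on chromosome 6 at CG region 17081782 to 17081963 (34.6 and 28.9 points). In these 5 pairs unbagged CG levels were between 36.8% and 41.8%.

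The leading losses, by the same ranking, mostly left some methylation in bagged skin. The largest was on chromosome 7, where the CG region from 14590425 to 14590649 (30 cytosines) had 23.4% in bagged skin and 71.7% in unbagged skin. The CHG region from 14590418 to 14590586 (21 cytosines) had 21.6% in bagged skin and 66.6% in unbagged skin. On chromosome 3 the CG region from 5742771 to 5742864 had 21.1% in bagged and 78.6% in unbagged skin, while the CHG region around it, from 5742755 to 5742869, had 15.2% in bagged and 42.5% in unbagged skin. Near-complete loss in both contexts was seen at a pair of loci on chromosome 15. At the first, CG region 25346318 to 25346669 had 5.22% in bagged and 43.6% in unbagged skin, and CHG region 25346366 to 25346515 had 2.58% in bagged and 44.5% in unbagged skin. At the other, CG region 34156588 to 34156705 had 4.88% in bagged and 46.6% in unbagged skin, and CHG region 34156581 to 34156703 had 4.21% in bagged and 40.7% in unbagged skin.

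The other 4 leading losses showed residual methylation of 16.8% to 40.8% in bagged skin. They were on chromosome 3 at CG region 16876974 to 16877175 (-31.5 points in CG and -48.7 in CHG context), on chromosome 7 at 22576823 to 22577041 (-40.96 and -37.5 points), on chromosome 4 at 19105223 to 19105356 (-43.03 and -33.5 points) and on chromosome 8 at 20838882 to 20839128 (-41.5 and -33.7 points). A CHH region overlapped 4 of the 8 leading gains and 0 of the 8 leading losses, beside 26.9% of all higher and 14.5% of all lower loci. The latter shares are without the limit on cytosines. With at least 10 cytosines in both regions, 17.4% of loci of either direction overlapped a CHH region, against 21.0% without the limit.

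**Figure D3:**
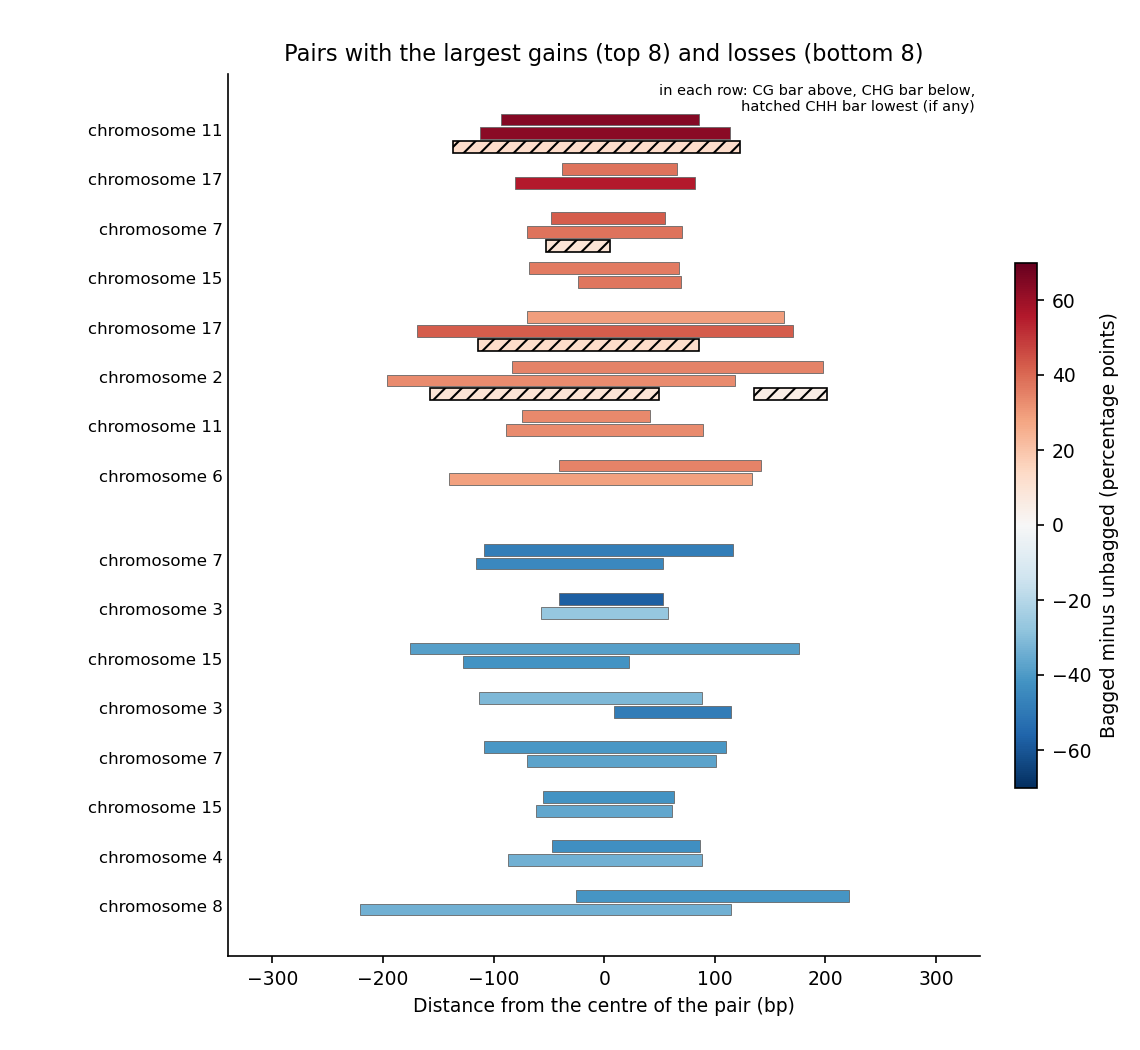
Extent of the regions in the 8 pairs with the largest gains (top) and the 8 with the largest losses (bottom), as distance in bp from the centre of the pair (x axis). Bars are CG regions, CHG regions and, hatched, overlapping CHH regions, with colour for the difference in percentage points, and CHH bars occur at 4 of the gains and at 0 of the losses.

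Pairs with unequal contexts were likewise taken among the 173 pairs with at least 10 cytosines in each region. The 4 in which the CG difference exceeded the CHG difference most were losses, and of the 4 with the opposite order 3 were gains. On chromosome 3 at CG region 5742771 to 5742864, the loss was 30.2 points larger in CG than in CHG context. On chromosome 13 the CG region from 19775952 to 19776007 had 12.1% in bagged and 47.8% in unbagged skin, where its CHG partner had 4.43% in bagged and 16.9% in unbagged skin. Then came chromosome 5 at CG region 3265563 to 3266284 (18.4 points larger in CG) and chromosome 6 at CG region 16504937 to 16505238 (18.1 points). In the other direction, the CHG difference exceeded the CG difference most, among these 173 pairs, in the chromosome 17 gain at 14613642 (-17.98 points, CG minus CHG size). It was followed by the loss on chromosome 3 at 16876974 (-17.2 points), the gain on chromosome 17 at 4442281 (-13.1 points), and a gain on chromosome 3 at CG region 921261 to 921420 (-9.39 points). Without the limit on cytosines the order differs: the extreme on the CHG side was then a gain on chromosome 10 at CG region 25466217 to 25466300 (-23.75 points), and a gain on chromosome 4 at 2844049 (18.9 points) came among the first 4 on the CG side.

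In most pairs the overlap took up nearly all of the shorter region, while the bounds differed. The overlap had a median of 88 bp (quartiles 60 and 134), which was 97.95% of the shorter region of the pair, and the centres were a median of 35.8 bp apart. At least 50% of both regions was shared in 168 of the 288 pairs. The CG region lay inside the CHG region in 54 pairs and the CHG region inside the CG region in 68, while 166 pairs (57.6%) were staggered and 0 had the same bounds. Joined loci were a median of 195 bp long (137 and 272). The longest were a loss on chromosome 12 from 18093736 to 18094494 (759 bp, -29.3 points over 72 CG and -31.2 points over 30 CHG cytosines) and a loss on chromosome 5 from 3265563 to 3266284 (722 bp, -38.7 points over 64 CG and -27.6 points over 35 CHG cytosines), each with 2 CHG regions along 1 CG region. They were followed by gains on chromosome 15 from 40501774 to 40502421 (648 bp, 106 CG cytosines, with 56.8% in bagged and 32.8% in unbagged skin) and on chromosome 12 from 16430719 to 16431339 (621 bp, 120 CG cytosines, with 46.99% in bagged and 27.1% in unbagged skin).

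At the limit of the rule, 2 pairs shared only 2 bp. On chromosome 15 at CG region 27650362 to 27650427 the differences were -20.4 points in CG and -31.01 in CHG context, and on chromosome 16 at CG region 11460046 to 11460129 they were -28.3 and -36.1 points. Just outside it, a CHG region on chromosome 6 from 16504853 to 16504936, with 12.3% in bagged and 60.6% in unbagged skin, touched a CG region of the loci but shared no base with it. That CG region, from 16504937 to 16505238, belongs to the loci through another CHG region.

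Regions at the loci were longer and held more cytosines than other regions of their context, as the rule favours: a longer region has more bases on which an overlap can occur. These values describe the members and support nothing. The CG regions had medians of 136 bp and 15 cytosines, against 93 bp and 11 cytosines in all CG regions on chromosomes. For CHG regions the medians were 129 bp and 14 cytosines, against 94 bp and 10. Of the CG regions under 75 bp, 6.06% were at a locus, and of those of 200 bp or more, 51.3% (43.04 to 59.6). The corresponding CHG portions were 5.71% and 46.2% (37.9 to 54.7).

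Large CG differences were more frequent at the loci than among all CG regions, and large CHG differences were not. A difference of at least 30 points in either direction was found in 94 of the 279 CG regions (33.7%, 28.2 to 39.6), against a background of 21.7% of CG regions on chromosomes. Of the 285 CHG regions, 62 had such a difference (21.8%, 17.1 to 27.0), against 25.7% of all CHG regions. In 43 pairs both regions differed by 30 points or more, 17 higher and 26 lower. In 52 pairs only the CG region did so, and in 21 only the CHG region.

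For large CG differences the gap between loci and other regions was wider among the losses, and it had the same sign in each class of length. Among lower CG regions, 43.9% (35.3 to 52.8) of those at loci differed by at least 30 points, against 19.9% (17.6 to 22.4) of those that overlapped no CHG region. For regions of 51 to 99 bp the shares were 39.5% at loci and 17.9% elsewhere, for 100 to 149 bp 51.9% and 20.5%, and for 150 bp or more 43.5% (30.99 to 56.7) and 27.5% (20.5 to 35.4). Among higher CG regions the shares were 24.5% at loci and 19.2% elsewhere, with overlapping intervals. By length they were 33.3% and 19.6% at 51 to 99 bp and 31.7% and 21.7% at 100 to 149 bp. At 150 bp or more they were nearly equal, 14.1% and 13.3%. No test of these differences was made, since regions are not replicates of the treatment.

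CHG methylation at the loci was lower than in CHG regions that overlapped no CG region, in both groups. Higher CHG regions had a median of 48.7% in bagged and 20.7% in unbagged skin at the loci, against 57.9% in bagged and 29.8% in unbagged skin elsewhere. Lower CHG regions had 21.7% in bagged and 49.0% in unbagged skin at the loci, against 31.4% in bagged and 61.7% in unbagged skin elsewhere. The differences themselves had close medians, 22.5 points at the loci and 22.7 elsewhere for higher regions, and -24.95 and -24.4 for lower ones. For higher regions of 150 bp or more, the medians were 50.7% at the loci and 50.6% elsewhere in bagged skin, and 24.2% and 25.4% in unbagged skin, so the gap was not seen among long gains. With all lengths together, CG levels at the loci lay nearer to those elsewhere, for example 54.0% at the loci and 56.3% elsewhere for higher regions in bagged skin. For lower CG regions in unbagged skin the order was the reverse, 68.6% at the loci and 63.2% elsewhere. Among higher CG regions of 150 bp or more there was a gap. Their medians were 53.8% at the loci and 61.9% elsewhere in bagged skin, and 27.7% and 33.0% in unbagged skin.

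CHH methylation, the context with by far the most regions in the table, changed together with the other contexts at part of the loci. A CHH region shared at least 1 bp with 58 of the 276 loci (21.0%, 16.4 to 26.3), namely with 39 of the 145 higher (26.9%, 19.9 to 34.9) and 19 of the 131 lower loci (14.5%, 8.96 to 21.7). Region by region, it overlapped 25.2% of the higher CG and 25.8% of the higher CHG regions at the loci, beside 16.9% of all higher CG and 17.5% of all higher CHG regions on chromosomes. For lower regions the shares were 14.4% and 11.9% at the loci, beside 8.20% and 6.75% of all lower CG and CHG regions. By length, the shares of higher CG regions at the loci and of those that overlapped no CHG region were 28.6% and 13.5% at 51 to 99 bp, and 23.4% and 21.7% at 150 bp or more. For lower CG regions of 100 to 149 bp the order was the reverse, 3.70% at the loci (1 of 27) and 10.6% elsewhere. Of all CHH regions on chromosomes 90.3% were higher in bagged skin and 9.71% lower. At the higher loci all 40 overlapping CHH regions were higher, and at the lower loci 17 of 19 were lower (89.5%, 66.9 to 98.7). CHH levels at the higher loci had medians of 14.02% in bagged and 3.88% in unbagged skin, and the 17 lower CHH regions had 8.71% in bagged and 20.4% in unbagged skin. All higher CHH regions on chromosomes had medians of 24.5% in bagged and 11.7% in unbagged skin.

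The largest CHH gain at a locus was on chromosome 10 from 25466112 to 25466430, with a level of 41.0% over 111 cytosines in bagged and 14.4% in unbagged skin. At this locus CHG methylation had 60.02% in bagged and 15.9% in unbagged skin, and CG methylation had only 40.4% in bagged and 20.05% in unbagged skin. On chromosome 13 from 13294950 to 13295233, CHH methylation had 28.5% in bagged and 3.70% in unbagged skin. The CG level of the locus was 25.1% in bagged and 7.31% in unbagged skin. Here and below, the CHH region and the regions of the locus have different bounds, so their levels are not over the same bases. A further CHH gain was on chromosome 10 from 22770791 to 22770886, at 26.9% in bagged and 7.37% in unbagged skin. CHH losses were led by chromosome 12 from 21471604 to 21471884, at 10.9% in bagged and 27.6% in unbagged skin. On chromosome 7 from 14846895 to 14847085 the CHH level was 11.6% in bagged and 27.1% in unbagged skin, close to the CG level of 7.61% in bagged and 32.7% in unbagged skin, and the next loss, on chromosome 4 from 9434438 to 9434498, was of -14.7 points.

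At 2 lower loci the overlapping CHH region had the opposite direction. On chromosome 6, from 16504950 to 16505162, CHH methylation was 45.8% in bagged and 25.6% in unbagged skin, within a locus whose CG level was 19.4% in bagged and 61.5% in unbagged skin and whose CHG level was 12.1% in bagged and 36.2% in unbagged skin. In bagged skin CHH methylation there exceeded both other contexts. On chromosome 16, from 17460900 to 17461062, CHH methylation was 38.8% in bagged and 23.9% in unbagged skin, beside a CG level of 66.3% in bagged and 90.9% in unbagged skin.

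Counted over all lower loci, CHH regions near the centre of a locus were mostly lower in bagged skin. Those farther out were mostly higher, as were 90.3% of all CHH regions on chromosomes. Whether the loci with a CHH loss were also those with CHH gains on their flanks was not tested. With centres within 250 bp of the centre of a lower locus, 5 CHH regions were higher and 17 lower. Between 250 and 500 bp, 20 were higher (87.0%) and 3 lower, and between 500 and 1000 bp, 33 were higher (89.2%) and 4 lower. Around the higher loci, 11 were higher and 1 lower from 250 to 500 bp, and 9 and 1 from 500 to 1000 bp. Per kb of sequence in these rings around lower loci, higher CHH regions numbered 0.0763, 0.305 and 0.252 per locus, against 0.0867 per kb along the whole chromosomes. From 1000 to 2000 bp the number was 0.164 per kb. At the higher loci it was highest at the locus itself, with 0.552 per kb within 250 bp, then 0.152 from 250 to 500 bp, 0.0621 from 500 to 1000 bp and 0.159 from 1000 to 2000 bp. CHH regions were called on their own, and the same CHH region can serve neighbouring loci.

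**Figure D4:**
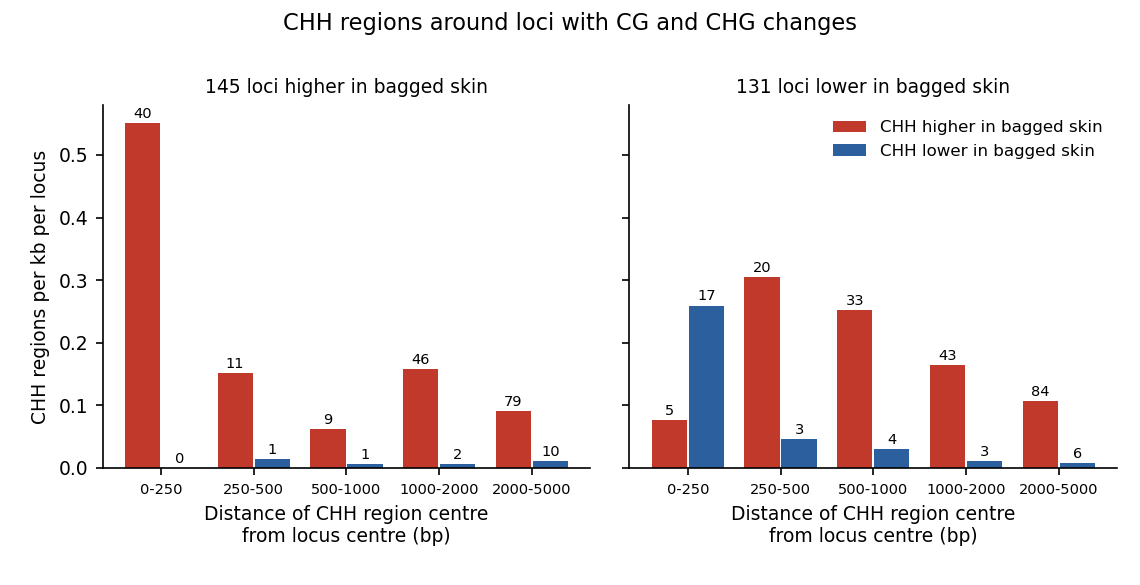
CHH regions per kb and locus (y axis) by distance in bp of the CHH region's centre from the locus centre (x axis), around loci higher (left) and lower (right) in bagged skin. Numbers above bars are CHH regions, and around the lower loci the bar of lower CHH regions leads within 250 bp (17 against 5) while higher ones lead farther out (20 against 3 from 250 to 500 bp). Of all CHH regions on chromosomes, 90.3% were higher in bagged skin.

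Counted from the edge of the locus and without sharing a base, a CHH region lay within 1 kb of 57 of the 131 lower loci (43.5%, 34.9 to 52.4) and of 26 of the 145 higher loci (17.9%, 12.1 to 25.2). Of the 75 flanking CHH regions at lower loci, 68 were higher in bagged skin (90.7%, 81.7 to 96.2), which is near the background of 90.3%. These 68 had medians of 31.04% in bagged and 17.1% in unbagged skin. The same measure was 27.9% (25.2 to 30.7) for lower CG regions that overlapped no CHG region and 30.7% (27.5 to 34.2) for lower CHG regions that overlapped no CG region. For the corresponding higher regions it was 22.2% and 20.6%. The CG and CHG regions at the lower loci, taken singly, gave 43.2% and 44.03%, close to the value of the joined loci.

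The loci were spread over all 17 chromosomes, from 7 on chromosome 1 to 27 on chromosome 15. Per Mb up to the last region of a chromosome there were 0.336 loci on chromosome 1 and 0.933 on chromosome 12. On chromosome 12, 6 loci were higher and 17 lower in bagged skin (26.1% higher), although 38.4% of all CG and 47.7% of all CHG regions of that chromosome were higher. On chromosome 14, 8 loci were higher and 2 lower. With so few loci per chromosome, these splits are given as counts, without a test.

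**Figure D5:**
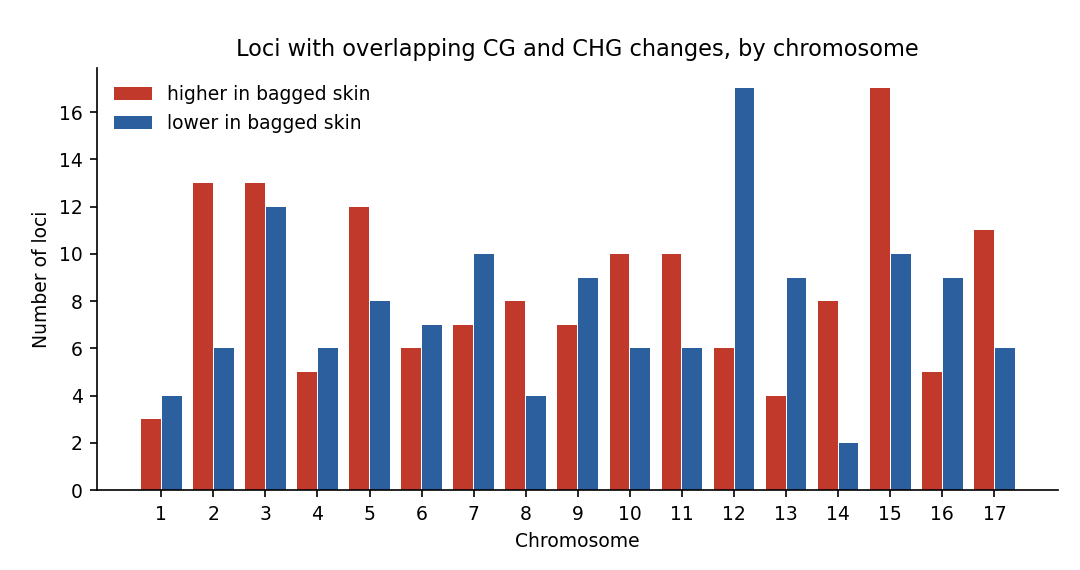
Number of loci (y axis) that were higher or lower in bagged skin on each of the 17 chromosomes (x axis). Chromosome 12 has 6 higher and 17 lower loci, and chromosome 15 has 17 higher and 10 lower loci.

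Neighbouring loci were far apart as a rule, with a median gap of 1143 kb, and 138 of the 259 neighbours on a chromosome had the same direction. Only 7 neighbours were closer than 10 kb, 4 of the same and 3 of opposite direction, and these were picked after the positions were seen. On chromosome 17, the gain from 4442181 to 4442520 and the loss from 4442982 to 4443116, the strongest of all pairs, were separated by 461 bp. Across this gap the CG level was 71.0% in bagged and 41.7% in unbagged skin on one side, and 16.4% in bagged and 85.4% in unbagged skin on the other. On chromosome 5, a gain from 14825578 to 14825780 lay 103 bp before a loss from 14825884 to 14826214, both at low levels. The CG level was 25.5% in bagged and 11.3% in unbagged skin at the gain, and 6.46% in bagged and 19.8% in unbagged skin at the loss. The third opposite couple, on chromosome 17, was 3154 bp apart, between a loss ending at 30121897 and a gain starting at 30125052. Among neighbours of the same direction, losses on chromosome 9 from 19912331 to 19912909 and from 19913061 to 19913163 were 151 bp apart, with CG levels of 13.8% and 12.3% in bagged and 47.3% and 44.1% in unbagged skin. Gains on chromosome 15 from 40501774 to 40502421 and from 40502708 to 40503086 were 286 bp apart. The other couples were losses on chromosome 7 from 18176565 to 18176683 and from 18177898 to 18178255, and losses on chromosome 3 from 5742755 to 5742869 and from 5744483 to 5744747.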

How the data were processed

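DNA from fruit skin was sequenced after bisulfite treatment in 3 bagged and 3 unbagged samples, and the library kit was Accel-NGS Methyl-Seq, per the labels' protocols. Per the submitters' processing notes, FastQC and Bismark 0.16.3 (a bisulfite aligner that also calls methylation) were used. Not given in the sources used here are how regions were called and at which thresholds, the genome build, the depth and the conversion rate. The authors deposited, per the file headers, the mean methylation of each region and group as a fraction between 0 and 1 with replicates combined, a difference and an area score, of which the score was not used. The table lists regions separately for each context, so which regions overlap can depend on how they were called. The deposited difference, also a column of the authors, equals bagged minus unbagged (largest deviation 1.17e-13 points). Lengths equal end minus start plus 1 throughout, so both ends were counted in. Positions are printed as deposited.

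Overlaps, joined loci, medians and exact binomial intervals were computed with Python 3.11.15, numpy 2.4.6, pandas 2.3.3 and scipy 1.17.1, and figures with matplotlib 3.10.9. The overlap code was tested on simulated data with planted overlaps. Named were the 8 largest gains and 8 largest losses by mean difference and the 4 pairs in each direction with the most unequal contexts (at least 10 cytosines in each region), the 4 longest loci, the pairs at the limit of the rule, the 3 largest CHH gains and losses and the opposite CHH regions. Others are said to be picked after their values were seen. The members, lists and limits were chosen with earlier results of these data known. Alternatives for the overlap, the difference, the number of cytosines, scaffolds and single chromosomes were computed.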

Additional observations from a re-analysis of the deposited data

How the results depend on the processing

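Of 230 alternative values for 10 results, 222 stayed within their limits, which were the binomial interval for a share, the exact order-statistic interval for a median and a factor of 1.5 for the number of loci. All 170 values with a chromosome left out did so, with 51.4 to 54.9% of loci higher and 19.6 to 22.7% overlapping a CHH region. These are a weak check, since 249 to 269 of the 276 loci remained and the values could hardly leave their limits. With at least 20 points in both regions, however, 47.3% of the loci were higher, so that lower loci were then the more numerous, inside the interval of 46.5 to 58.6 of the value without this limit. With an overlap of at least 50% of both regions 168 loci were left, and 100% of 35 overlapping CHH regions had the direction of the locus, since both opposite cases were gone. With at least 20 points in both regions the medians were 27.3 (CG) and 25.2 points (CHG) for higher and -30.5 (CG) and -27.3 points (CHG) for lower pairs, which follows from the limit itself. With at least 10 cytosines in both regions 167 loci were left, with a CG median of 22.2 points for higher pairs, and the cause was not tested. The direction was shared in 100% of pairs under every alternative, which is bound to hold wherever pairs are only removed. No paired analysis was possible because the deposited means combine the replicates, and for the same reason no replicate could be left out. The depth is unknown, so the precision of a single region's level cannot be given.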
